A study of Drosophila melanogaster with 20 samples.

Results

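The salivary gland of late third-instar Drosophila melanogaster larvae in which the ecdysone receptor gene EcR was knocked down by RNA interference was compared, gene by gene, with the wild-type (WT) gland of younger larvae. The comparison rests on 4 libraries of the 20 in the series, 2 of the EcR-RNAi gland at -6 h (EcRi gland -6 h) and 2 of the WT gland at -30 h (WT gland -30 h), with hours counted from puparium formation. It asks whether the late EcR-RNAi gland resembles a younger WT gland, and in which genes it does not. The EcRi animals were yw/yw and carried the driver Vg-GAL4 with the recombinase transgene UAS-Flp, the cassette Tub>>CD2>>GAL4, the reporter UAS-GFP and the hairpin UAS-EcR-RNAi[104]. In this scheme GAL4 is switched on under a ubiquitous promoter in cells with a history of Vg-GAL4 activity and drives both GFP and the hairpin. The WT animals were +/+ on all 3 chromosomes and carried none of these transgenes. EcRi gland -6 h came from wandering larvae, and WT gland -30 h from larvae dissected 72 h after they were collected at hatching. All 4 samples are labelled female, were raised at 25 °C and are pools of at least 60 dissected tissues according to the labels. A further 3 gland groups of 2 libraries each served as landmarks: EcRi gland -30 h, of the same genotype as EcRi gland -6 h, and WT gland -6 h and WT gland +6 h, of the same genotype as WT gland -30 h. Genotype and time differ together between the 2 groups compared, and the hairpin, the GFP and the genetic background of the lines cannot be told apart.

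Ecdysone acts through a heterodimer of the nuclear receptors EcR and Ultraspiracle (usp). Pulses of the hormone late in larval life switch on a short list of early genes, many of them transcription factors, which in turn control tissue-specific late genes. In the salivary gland a set of genes at chromosome band 3C is active in the younger larva, is replaced by the glue protein genes as the larva approaches wandering, and gives way to the 71E late-puff genes in the prepupa. The larval gland grows by endoreplication and makes large amounts of ribosomes before it turns to secretion.

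Levels are given as scaled RPM, RPM being the usual depth-corrected unit for reads; the reads were recovered from the deposited values and scaled by TMM, a trimmed mean of log ratios, without correction for gene length. Changes are differences in log2(scaled RPM + 1) between group means, EcRi gland -6 h minus WT gland -30 h, with the standard error of limma's fit; on this scale the change of a gene with few reads is understated. A gene is said to have risen or fallen where EcRi gland -6 h differed from WT gland -30 h with a Benjamini-Hochberg adjusted p under 0.05 in limma's moderated test and by at least 1 on the log2 scale. Whether both libraries of a group stem from different animals is not in the labels. The p-values therefore cover the spread among these libraries, which may be technical, pooled for each gene over all 10 groups. The 10 gland libraries held 14979955 to 22616731 reads in genes.

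One of the 4 libraries stood apart. WT gland -30 h replicate 2 had a read in 6356 genes, against 11000 genes in replicate 1 of the same group, at a similar depth of 17056509 and 17687091 reads. The EcRi gland -6 h libraries had a read in 10820 and 11165 genes. Of the 10176 genes tested, 3841 were at 0 reads in WT gland -30 h replicate 2 and 556 in replicate 1. Replicate 2 also held more glue reads: the 8 main glue genes took 0.989% of its reads, against 0.125% in replicate 1. Counts below are therefore given with and without this library. Of the 104 called genes among those chosen to be named, 98 were also called without it. For the other 6, and for genes described below whose change moved by more than 1.5-fold, both changes are given. Without it, WT gland -30 h is a single library, which is assumed to vary like the other groups.

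Across all genes tested, both EcRi gland -6 h libraries lay nearest to the EcRi gland at -30 h, then to WT gland -30 h replicate 1, and farther from the WT gland of their own nominal time. The distance between 2 libraries was taken as the median absolute difference in log2(scaled RPM + 1). EcRi gland -6 h replicates 1 and 2 were 0.193 apart. Their distances to the EcRi gland -30 h libraries were 0.268 to 0.324, those to WT gland -30 h replicate 1 were 0.363 and 0.380, and those to the WT gland -6 h libraries were 0.605 to 0.646. Distances to WT gland +6 h were 0.917 to 0.939. WT gland -30 h replicate 2 did not follow this order: it was 0.795 and 0.828 from the EcRi gland -6 h libraries, and 0.650 from its own replicate. EcRi gland -6 h was thus nearer to WT gland -30 h than to WT gland -6 h for 1 of the 2 younger WT libraries. In each other gland group the 2 libraries lay 0.193 to 0.286 apart. The spread pooled over groups therefore understates that of WT gland -30 h, and the standard errors and p-values of this comparison may be too small.

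**Figure D1:**
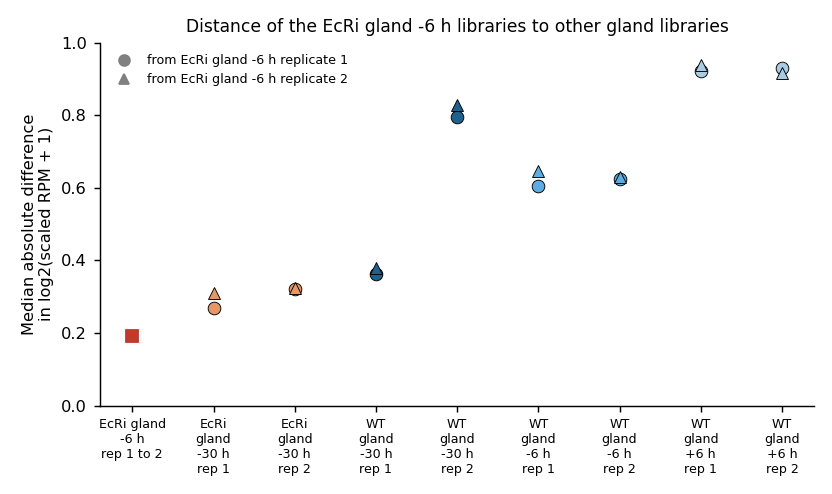
Median absolute difference in log2(scaled RPM + 1) over the 10176 genes tested, between each EcRi gland -6 h library (circle, replicate 1; triangle, replicate 2) and each other gland library on the x axis, with the distance between both EcRi gland -6 h replicates at the left (square). The distances to WT gland -30 h replicate 1 (0.363 and 0.380) lie under those to WT gland -6 h, and those to WT gland -30 h replicate 2 (0.795 and 0.828) lie above them.

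A second description took the genes whose mean differed at least 2-fold between WT gland -6 h and WT gland -30 h in log2(scaled RPM + 1), which were 3986 genes. EcRi gland -6 h was nearer to WT gland -30 h for 2338 of them (58.7%) and nearer to WT gland -6 h for 1648. Without WT gland -30 h replicate 2 the EcRi gland -6 h mean was nearer to the younger WT gland for 2862 of 3707 genes (77.2%), and with replicate 2 alone for 1973 of 5066 genes (38.9%). The majority therefore rests on WT gland -30 h replicate 1.

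EcRi gland -6 h nevertheless differed from WT gland -30 h in 1835 of the 10176 genes (18.0%): 1358 were higher (13.3%) and 477 lower (4.69%). Without WT gland -30 h replicate 2, 1324 genes (13.0%) differed, 896 higher (8.81%) and 428 lower (4.21%). Calls in the same direction in both fits numbered 1001 (9.84%), 780 higher (7.67%) and 221 lower (2.17%). Of the 1358 genes called higher, 674 were at 0 reads in WT gland -30 h replicate 2, and of the 477 called lower none was. The compared libraries did not overlap for 5013 of all genes tested (49.3%) and for 1830 of the 1835 called. The counts of list members below are to be set against these shares of all genes. Each of 817 calls, 650 higher and 167 lower, was kept when any 1 of the 4 libraries was left out. The split into higher and lower depends on scaling: of all calls, 74.0% were higher with TMM scaling, and 58.5% of 1860 calls were higher with library size alone. A fit of the 4 compared libraries alone called 74 genes and array weights 342, against 4196 without WT gland -30 h replicate 1 and 1186 without EcRi gland -6 h replicate 2.

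Set beside it, the same fit called 448 genes (4.40%) between EcRi gland -6 h and EcRi gland -30 h, 270 higher (2.65%) and 178 lower (1.75%). It called 2744 (27.0%) between EcRi gland -6 h and WT gland -6 h, 1750 higher (17.2%) and 994 lower (9.77%), and 4361 (42.9%) between EcRi gland -6 h and WT gland +6 h. The split against WT gland -6 h depends on scaling: 1429 were higher and 1235 lower with median-of-ratios scaling, 990 and 985 with voom, and 6297 and 203 with library size alone, which puts the median change of all genes at 1.58, against 0.16 with TMM. Against EcRi gland -30 h, 799 were higher and 73 lower with library size alone (median change 0.39, against 0.01). Between WT gland -6 h and WT gland -30 h it called 3537 (34.8%), and between EcRi gland -30 h and WT gland -30 h 1386 (13.6%). These comparisons share libraries with one another, so their counts are not independent.

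**Figure D2:**
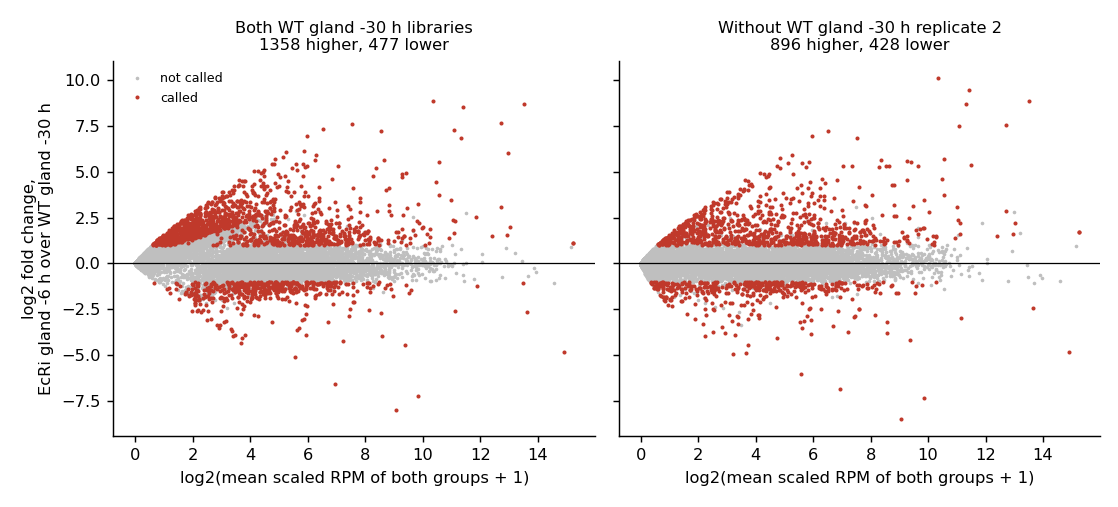
Log2 fold change of EcRi gland -6 h over WT gland -30 h for each gene tested (y axis) against the log2 of its mean scaled RPM over both groups plus 1 (x axis), with called genes in red and the others in grey, from both WT gland -30 h libraries (left) and without replicate 2 (right). The band of called genes along the upper edge at low levels in the left panel is thinner in the right one, where 896 genes are higher and 428 lower.

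EcR itself did not pass the test. It stood at 247 and 191 scaled RPM in EcRi gland -6 h, against 278 and 301 in WT gland -30 h (log2 change -0.41 ± 0.14, adjusted p = 0.0496 in limma's test, under the 2-fold minimum). The 2 groups did not overlap, with both EcRi gland -6 h libraries under both WT gland -30 h libraries. The WT gland at -6 h held 1318 and 1268, more than in any EcRi or younger WT library. The EcR span overlaps CG14589 and several tRNA genes, and hairpin reads may be included in the EcR value. Its partner usp stood at 59.7 and 51.1, against 47.6 and 69.7 in WT gland -30 h, with overlapping libraries (-0.06 ± 0.19, adjusted p = 0.867 in limma's test).

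Of 18 tested genes of the ecdysone cascade, 9 rose and 1 fell, against 13.3% and 4.69% of all genes; the median change was 1.41, against 0.16 over all genes. Without WT gland -30 h replicate 2, 8 rose and none fell, and 7 rose in both fits. Of all genes, 9.77% were lower and 17.2% higher in EcRi gland -6 h than in WT gland -6 h. With every library, 13 of the 18 were lower in EcRi gland -6 h than in WT gland -6 h and 2 were higher. EcR, the target of the hairpin, is among the 18 and among these 13 (-2.57 ± 0.14). With library size alone 4 were lower than in WT gland -6 h and 4 higher. Hr4, a nuclear receptor that times the larval response, showed the largest rise: 249 and 189 scaled RPM in EcRi gland -6 h, against 8.39 and 7.57 in WT gland -30 h (4.61 ± 0.35, adjusted p = 8.34e-07). The EcRi gland already held 311 and 459 at -30 h, and WT gland -6 h held 820 and 627.

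E23, an ABC transporter that lowers the ecdysone response, stood at 21.8 and 24.8 in EcRi gland -6 h, against 4.22 and 0 in WT gland -30 h, with a rise of 3.41 ± 0.55 (adjusted p = 0.000491) and of 2.22 without replicate 2. Eip78C, a nuclear receptor of an early puff, stood at 14.9 and 14.2, against 2.09 and 0 (3.14 ± 0.44, 2.33 without replicate 2). WT gland -6 h was far above both, with 212 and 196 for E23 and 774 and 836 for Eip78C. Blimp-1, a repressor whose decay times the prepupal response, stood at 10.2 and 7.64, against 1.75 and 0.105 (2.5 ± 0.37, 1.84 without replicate 2). WT gland -6 h held 8.77 and 8.51, within the range of the EcRi gland -6 h libraries. The calcium-binding protein gene Eip63F-1 stood at 189.5 and 185.5, against 70.4 and 60.7 (1.51 ± 0.21, adjusted p = 0.000159).

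Low-level members also rose. The nuclear receptor gene Hr38 stood at 3.17 and 3.61, against 0.284 and 0 in WT gland -30 h (1.95 ± 0.29), and Eip93F, which directs the later destruction of larval tissue, at 2.32 and 2.83, against 0.0948 and 0 (1.77 ± 0.46). Hr39, a nuclear receptor, and ftz-f1, the competence factor of the prepupa, rose with both WT libraries (2.22 ± 0.57 and 1.31 ± 0.37), but not without replicate 2 (0.79 and 0.70). The ETS factor gene Eip74EF was the one that fell: 56.0 and 59.9 in EcRi gland -6 h, against 101 and 182 in WT gland -30 h (-1.21 ± 0.39, adjusted p = 0.0321), and -0.80 without replicate 2 (adjusted p = 0.245). WT gland -6 h held 2338 and 1698, so both EcRi gland -6 h libraries held less of this early gene than the libraries of either WT stage. The call against WT gland -30 h was also lost when either EcRi gland -6 h library was left out.

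The other regulators did not pass. The zinc-finger factor gene br stood at 2451 and 2453 in EcRi gland -6 h, against 3511 and 5626 in WT gland -30 h (-0.86 ± 0.49, adjusted p = 0.205), and at 9777 and 8754 in WT gland -6 h. The nuclear receptor gene Eip75B stood at 264 and 222, against 217 and 182 (0.28 ± 0.19), while WT gland -6 h held 3242 and 2330. Hr78, another nuclear receptor, stood at 54.5 and 37.2, against 47.9 and 67.7, and Hr3, which represses early genes, at 1.75 and 3.01, against 0.0474 and 0 (1.70 ± 0.62, adjusted p = 0.0565). The clock factor gene vri stood at 37.5 and 45.5, against 59.4 and 146 (-1.16, -0.51 without replicate 2). Sox14, a transcription factor of the premetamorphic response, stood at 59.2 and 63.0, against 28.7 and 37.6, and passed only without replicate 2 (0.87 ± 0.23 with both libraries, 1.06 without).

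**Figure D3:**
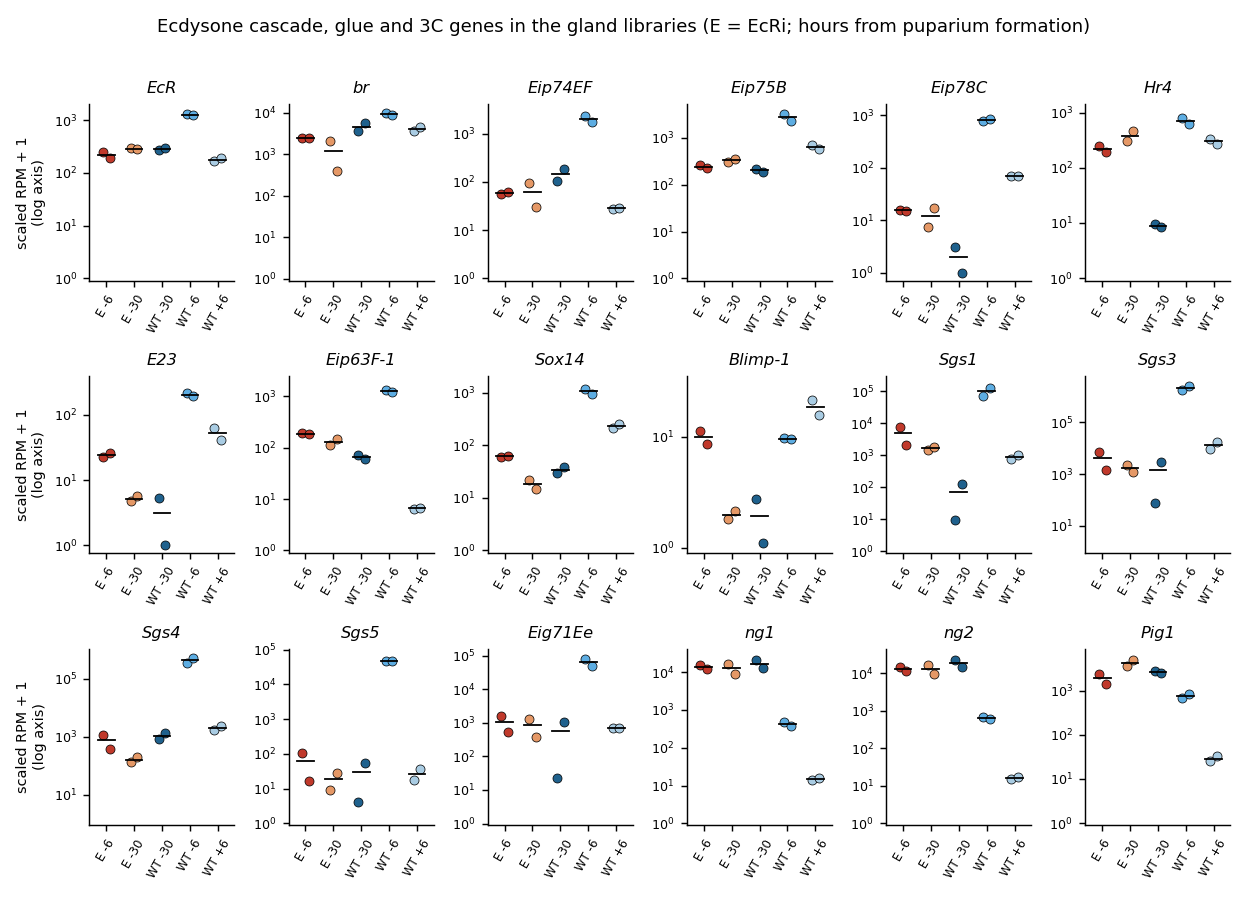
Scaled RPM plus 1 (log axis) of 18 genes of the ecdysone cascade, the glue set and the 3C set in the 10 gland libraries; points are libraries, black bars are means of the 2, E stands for EcRi and numbers are hours from puparium formation. EcR, Eip74EF, Eip75B and Sox14 in EcRi gland -6 h sit far under WT gland -6 h. Of these, EcR and Eip75B sit near WT gland -30 h, Eip74EF under it and Sox14 above it. Hr4 sits far above WT gland -30 h, and ng1 and ng2 sit near WT gland -30 h.

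Among 14 other genes known to respond to ecdysone, 5 rose (35.7%, against 13.3% of all genes) and none fell. Without replicate 2, 5 rose too (against 8.81% of all genes), and 4 rose in both fits. ImpE2, a secreted protein of evaginating discs, stood at 956 and 648 in EcRi gland -6 h, against 39.0 and 59.2 in WT gland -30 h (4.01 ± 0.31, adjusted p = 9.26e-07). WT gland -6 h held 51.5 and 63.7, so both EcRi gland -6 h libraries lay above both WT stages. The insulin-binding protein gene ImpL2 stood at 27.8 and 24.1, against 3.46 and 0 (3.67 ± 0.54, 2.59 without replicate 2), and at 1.54 and 1.15 in WT gland -6 h. Ldh, lactate dehydrogenase, stood at 15.9 and 21.1, against 0.427 and 0.0525 (3.98 ± 0.35), and at 123.5 and 96.0 in WT gland -6 h. Fbp1 also rose and is given below, where it is counted again as a fat body marker, as Ldh is under glycolysis. EcRi gland -30 h was already higher than WT gland -30 h for 4 of the 14. Against EcRi gland -30 h, ImpE2 and ImpL2 did not pass (0.99 ± 0.31 and 1.29 ± 0.54), while Ldh and Fbp1 were higher (1.65 ± 0.35 and 3.55 ± 0.76). Outside this list, among the genes for ecdysone uptake and conversion, Oatp74D, the importer of ecdysone into cells, stood at 181 and 184, against 83.4 and 59.9 (1.35 ± 0.19, adjusted p = 0.000196).

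Glue transcripts took a far smaller share of the reads than in the WT gland of the same nominal time. The 8 main glue genes together took 1.74% and 0.530% of the reads in EcRi gland -6 h, against 0.125% and 0.989% in WT gland -30 h, and 70.6% and 75.8% in WT gland -6 h. All 8 were called lower in EcRi gland -6 h than in WT gland -6 h, against 9.77% of all genes. Against WT gland -30 h, 1 of 8 rose with both libraries and 5 of 8 without replicate 2. Sgs1 stood at 7981 and 2106 in EcRi gland -6 h, against 8.77 and 131 (6.84 ± 1.05, 8.71 without replicate 2, adjusted p = 0.000328), and at 1521 and 1843 in EcRi gland -30 h.

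Sgs3 stood at 7102 and 1470 in EcRi gland -6 h, against 76.9 and 2888 in WT gland -30 h, so the groups overlapped (2.77 ± 1.32, adjusted p = 0.134). Its change was 5.37 without replicate 2 (adjusted p = 0.00932). Sgs5, CG7587 and Eig71Ee likewise passed only without replicate 2, at 3.38, 5.33 and 5.33, against 1.5, 2.03 and 2.55 with it. Sgs7 stood at 569 and 144, against 74.2 and 2434, and Sgs8 at 347 and 57.8, against 24.9 and 629.9. Their changes were -0.57 and 0.16, and 1.94 and 2.46 without replicate 2, and neither passed in either fit. Sgs4 stood at 1183 and 385, against 836 and 1327 (-0.64 ± 0.64). For each of these genes the direction against WT gland -30 h depends on which of its libraries is used or is not resolved, whereas WT gland -6 h held at least 46994 of each.

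Of the 5 genes at 3C, 4 did not pass the test. Against WT gland -6 h these 4 were called higher, by 1.27 ± 0.40 for Pig1 (adjusted p = 0.0221) and by 3.05 ± 0.50 or more for ng1, ng2 and ng3; with median-of-ratios scaling Pig1 did not pass. The new-glue gene ng1 stood at 15385 and 11944 in EcRi gland -6 h, against 20723 and 12654 in WT gland -30 h (-0.26 ± 0.46, adjusted p = 0.732), and at 489 and 364 in WT gland -6 h. ng2 stood at 14716 and 11649, against 22506 and 14621, ng3 at 5925 and 4457, against 9945 and 7640, and Pig1 at 2389 and 1418, against 2776 and 2493. The 4 changes lay between -0.76 and -0.26, and none passed. In WT gland -6 h these 4 held between 364 and 963. ng4 rose, with 26.1 and 11.1 in EcRi gland -6 h, against 0.522 and 0.0525 (3.84 ± 0.34), and EcRi gland -30 h held 25.3 and 49.1. The 5 genes and Sgs4 lie within the span of dnc.

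Of the 10 late-puff genes at 71E, 1 rose and none fell. Eig71Ej stood at 22.9 and 8.84 in EcRi gland -6 h, against 0.332 and 0.105 in WT gland -30 h (3.66 ± 0.63), and at 2161 and 3767 in WT gland +6 h. The other 9 stood at no more than 6.84 in EcRi gland -6 h and, apart from 27.9 for Eig71Eg and 11.2 for Eig71Ei in replicate 2, at no more than 4.65 in WT gland -30 h. Eig71Eg and Eig71Ei changed by -0.89 and -1.58, and by 0.28 and 0.19 without replicate 2, without passing in either fit. Eig71Ea held 80235 and 85417 in WT gland +6 h.

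None of 10 tested factors of gland identity rose or fell, with or without replicate 2, while 1 rose and 1 fell without WT gland -30 h replicate 1. The forkhead factor gene fkh stood at 794 and 809 in EcRi gland -6 h, against 834 and 377 in WT gland -30 h, and 422 and 338 in WT gland -6 h. CrebA, a regulator of secretory genes, stood at 950.0 and 765, against 689.9 and 969. The basic helix-loop-helix factor gene sage had the largest change, with 116 and 81.7, against 133 and 295 (-1.02 ± 0.36, adjusted p = 0.0507). The others (sens, Scr, eyg, toe, hth, exd and Dr) changed by -0.27 to 0.84. Each of 13 salivary gland markers had reads in all 4 libraries, and they summed to 46850 and 32330 scaled RPM in EcRi gland -6 h, against 55970 and 43950 in WT gland -30 h. This sum varies with stage, at 2120000 and 2989000 in WT gland -6 h and 12670 and 20890 in WT gland +6 h. It therefore does not measure gland identity apart from stage. PH4alphaSG2, a gland prolyl hydroxylase, rose: 358.8 and 359.9, against 68.7 and 116 (2.0 ± 0.32), while WT gland -6 h held 5.92 and 7.13.

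Many genes for making ribosomes were lower than in the younger WT gland. Of 26 such genes, 11 fell and 1 rose, and 13 fell and none rose without replicate 2, with 9 lower in both fits; the median change was -0.93. The backgrounds were 4.69% lower over all genes with both libraries and 4.21% without replicate 2. Without EcRi gland -6 h replicate 2 the number that fell was 7. Nop60B, a pseudouridine synthase of ribosomal RNA, stood at 70.2 and 75 in EcRi gland -6 h, against 195 and 242 in WT gland -30 h (-1.57 ± 0.16, adjusted p = 1.25e-05). WT gland -6 h held 8.33 and 7.59. RpI1, the largest subunit of RNA polymerase I, stood at 26.4 and 24.5, against 70.2 and 66.4 (-1.39 ± 0.16), and at 4.39 and 3.91 in WT gland -6 h. The nucleolar protein gene nop5 fell by 1.39 ± 0.24 and fibrillarin (Fib) by 1.36 ± 0.30. The 4 genes named lay between the WT stages in EcRi gland -6 h, and for 22 of the 22 members that differed 2-fold between WT stages it was nearer to WT gland -30 h (22 of 23 without replicate 2).

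For DNA replication, 13 of 37 members fell (35.1%, against 4.69% of all genes) and none rose. Only 4 fell without WT gland -30 h replicate 2 (10.8%, against 4.21%) and 7 without EcRi gland -6 h replicate 2. Without WT gland -30 h replicate 1, 20 fell and 8 rose. Mcm5, a subunit of the replicative helicase, stood at 11.1 and 8.12 in EcRi gland -6 h, against 29.4 and 29.5 in WT gland -30 h, and 2.19 and 2.30 in WT gland -6 h (-1.53 ± 0.20, adjusted p = 0.0001). Mcm2 fell by 1.76 ± 0.30 and RPA2, a single-strand binding subunit, by 1.07 ± 0.32. EcRi gland -30 h was already lower than WT gland -30 h for 14 of the 37 and higher for none (median change -0.90, with 13.6% of all genes called either way). None of the 37 was called between EcRi gland -6 h and EcRi gland -30 h (median change 0.06, with 4.40% of all genes called). In the comparison of EcRi gland -6 h with WT gland -6 h, 29 of the 37 were higher in EcRi gland -6 h and none lower. Of all genes, 17.2% were higher and 9.77% lower in that comparison. The number of members higher was 23 with median-of-ratios scaling and 37 with library size alone.

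Of 71 mitochondrial ribosomal protein genes, 14 fell (19.7%, against 4.69% of all genes) and 1 rose. Only 4 fell without WT gland -30 h replicate 2 (5.63%), a share near the 4.21% of all genes. The number that fell was 26 with library size alone and 7, with 7 risen, with voom. It was 6 without EcRi gland -6 h replicate 1 and 3 without replicate 2 of that group. Without WT gland -30 h replicate 1, 27 fell and 17 rose. mRpL21 stood at 2.55 and 2.47, against 7.30 and 19.3 in WT gland -30 h (-1.89 ± 0.37, -1.24 without replicate 2). Cytosolic ribosomal protein genes showed 1 rise and no fall among 84, and respiratory chain genes neither among 61. Of 36 mitosis genes, 4 fell (11.1%) and 1 rose, but 1 fell without WT gland -30 h replicate 2 (2.78%, under the background), 2 without EcRi gland -6 h replicate 1, and 9 fell and 15 rose without WT gland -30 h replicate 1. The kinesin gene ncd stood at 2.49 and 3.13, against 8.34 and 37.2 (-2.32 ± 0.46, -1.30 without replicate 2), and the kinesin gene Klp10A at 250.4 and 231, against 87.8 and 107 (1.30 ± 0.15), a level near the 263 and 195 of WT gland -6 h.

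Several inhibitors of growth were among the growth-control genes that rose. Of 21 such genes 5 rose (23.8%, against 13.3% of all genes) and none fell, 4 without WT gland -30 h replicate 2 (19.0%, against 8.81%) and 3 without EcRi gland -6 h replicate 1. Thor, the translation inhibitor 4E-BP, stood at 1769.5 and 1305 in EcRi gland -6 h, against 404 and 272 in WT gland -30 h (2.19 ± 0.25, adjusted p = 2.94e-05). WT gland -6 h held 4055 and 4776. The TOR inhibitors scyl and chrb stood at 1725 and 1419, against 625 and 259, and at 97.6 and 82.3, against 13.4 and 60.7 (1.96 ± 0.35 and 1.60 ± 0.43, 1.32 and 2.65 without replicate 2). The Hippo pathway gene expanded (ex), whose span overlaps crq, stood at 136 and 169.6, against 59.4 and 47.9 (1.49 ± 0.14).

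Some genes of the secretory pathway were lower than in the younger WT gland. Of 32 members 5 fell (15.6%, against 4.69% of all genes) and none rose. The number that fell was 3 without WT gland -30 h replicate 2 (9.38%, against 4.21%), 13 without replicate 1 of that group, 8 without EcRi gland -6 h replicate 1 and 10 with library size alone. Sec61alpha, the channel of the endoplasmic reticulum, stood at 431 and 309 in EcRi gland -6 h, against 1107 and 1111 in WT gland -30 h (-1.60 ± 0.17, adjusted p = 1.49e-05). At -30 h the EcRi gland held 821 and 656, and WT gland -6 h 461 and 408. The chaperone gene Gp93 stood at 467 and 344, against 949 and 1321 (-1.48 ± 0.17), and its values in EcRi gland -6 h were the lowest of the 10 gland libraries. Of 12 glycolysis genes 4 fell (33.3%) and 1 rose, and 2 fell when either EcRi gland -6 h library or WT gland -30 h replicate 2 was left out. Pgi, glucose-6-phosphate isomerase, stood at 33.8 and 32.0, against 77.1 and 101 (-1.40 ± 0.16). Tpi, triosephosphate isomerase, stood at 42.8 and 39.0, against 89.9 and 86.9 (-1.10 ± 0.30). The member that rose was Ldh.

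Of 15 cytoskeleton genes 9 rose and none fell, actin, myosin and tropomyosin genes among them. This is 60.0%, against 13.3% of all genes, and 8 rose in each of the 4 fits that left out 1 compared library. Tropomyosin (Tm1) stood at 3125 and 3963 in EcRi gland -6 h, against 693 and 669 in WT gland -30 h (2.37 ± 0.14, adjusted p = 1.15e-07), above the 1337 and 1633 of WT gland -6 h; its span overlaps CG45218. The cytoplasmic actin gene Act5C stood at 7394 and 8678, against 2845 and 2925 (1.47 ± 0.16), and at 6154 and 5946 in WT gland -6 h. The myosin light chain gene sqh stood at 1017 and 1171, against 309.7 and 547 (1.40 ± 0.24). The actin nucleator gene spir stood at 6.56 and 7.16, against 1.66 and 0.105 (2.20 ± 0.33, 1.56 without replicate 2). For 6 of the 8 members that differed 2-fold between the WT stages, EcRi gland -6 h was nearer to WT gland -6 h.

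Among matrix genes, the metalloprotease genes and their inhibitor rose and a collagen IV gene fell. Of 14, 3 rose (21.4%, against 13.3% of all genes) and 1 fell (7.14%, against 4.69%); 3 rose and 3 fell without WT gland -30 h replicate 2, while 6 rose and 1 fell without replicate 1 of that group. The matrix metalloprotease gene Mmp1 stood at 463 and 1014 in EcRi gland -6 h, against 16.2 and 0.263 in WT gland -30 h (7.20 ± 0.81, adjusted p = 2.4e-05, and 5.32 without replicate 2). The EcRi gland at -30 h held 57.6 and 34.2, and WT gland -6 h 67.1 and 117, so both EcRi gland -6 h libraries lay above all other gland libraries; the span of Mmp1 overlaps Pof. Mmp2 stood at 14.2 and 23.5, against 2.75 and 0.21 (3.18 ± 0.45, 2.36 without replicate 2), and Timp, an inhibitor of these proteases, at 9.67 and 11.7, against 0.237 and 0.0525 (3.35 ± 0.30). The collagen IV gene vkg fell to 16.5 and 21.7, against 216 and 156 (-3.21 ± 0.35, adjusted p = 2.07e-05). In EcRi gland -30 h it held 242 and 356, and in WT gland -6 h 21.5 and 9.89.

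Of 11 genes of tissue stress 5 rose (45.5%, against 13.3% of all genes) and none fell, 3 without WT gland -30 h replicate 2 (27.3%, against 8.81%) and 3 without EcRi gland -6 h replicate 1. The cytokine gene upd3 stood at 22.2 and 22.1 in EcRi gland -6 h, against 0.427 and 0 in WT gland -30 h (4.27 ± 0.28, adjusted p = 2.18e-07), and at 0.439 and 0.46 in WT gland -6 h. Its relative upd2 stood at 4.64 and 6.55, against 0.0948 and 0 (2.64 ± 0.27). The JNK phosphatase gene puc stood at 283 and 233, against 119 and 90.2 (1.30 ± 0.17), a level near the 275 and 279 of WT gland -6 h. In the EcRi gland at -30 h there were 14.6 and 14.7 of upd3 and 260.4 and 342 of puc.

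Of 30 glutathione transferases 5 rose (16.7%) and 2 fell (6.67%), shares near the 13.3% and 4.69% of all genes, and 5 rose and 4 fell without WT gland -30 h replicate 2; without replicate 1 of that group, 7 rose and 5 fell. GstS1 stood at 2531 and 3404 in EcRi gland -6 h, against 54.7 and 69.4 in WT gland -30 h (5.55 ± 0.35, adjusted p = 1.97e-07), and at 2452 and 1035 in EcRi gland -30 h. GstT4, GstT3 and GstE3 rose by 3.37 ± 0.58, 2.93 ± 0.33 and 2.71 ± 0.33 (2.26, 2.35 and 2.16 without replicate 2). Of 28 antimicrobial and recognition genes 3 rose (10.7%, under the share of all genes), but 2 without WT gland -30 h replicate 2 and 5 without replicate 1. They include the drosomycin-like gene Drsl5 at 19.2 and 33.2, against 0.332 and 0 (4.51 ± 0.36), and the peptidoglycan amidase gene PGRP-SC2 at 10.6 and 15.5, against 0.332 and 0 (3.58 ± 0.28). Drsl5 held 0 and 0.164 in EcRi gland -30 h, and 10.7 and 15.9 in WT gland -6 h.

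Of 15 heat shock genes 4 rose (26.7%, against 13.3% of all genes) and 1 fell (6.67%, against 4.69%), 3 and 1 without WT gland -30 h replicate 2, and 2 rose and none fell when either EcRi gland -6 h library was left out. Hsp70Bb stood at 1315 and 1089 in EcRi gland -6 h, against 50.1 and 30.4 in WT gland -30 h (4.90 ± 0.47), and Hsp70Ba at 667 and 529.9, against 14.6 and 30.4 (4.75 ± 0.34). These are near-identical copies between which reads can be divided, so the value of each copy is uncertain. At -30 h the EcRi gland held 1153 and 1350 of Hsp70Bb, and WT gland -6 h 43.4 and 23.2. The small heat shock gene Hsp23 stood at 92.4 and 79.0, against 14.9 and 52.7 (1.56 ± 0.54, 2.44 without replicate 2), and at 428 and 504 in WT gland -6 h.

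Of 9 apoptosis genes 6 rose (66.7%, against 13.3% of all genes) and none fell with both libraries, and 3 rose when WT gland -30 h replicate 2 or either EcRi gland -6 h library was left out. The apoptosome gene Dark stood at 21.2 and 26.7, against 10.1 and 0.0525 (2.86 ± 0.68, 1.17 without replicate 2). Diap1, an inhibitor of apoptosis, stood at 283 and 279.6, against 80.5 and 34.4 (2.40 ± 0.28, 1.79 without replicate 2), and rpr, which antagonises it, at 5.71 and 5.41, against 1.75 and 0 (1.98 ± 0.38, 1.25 without replicate 2). EcRi gland -30 h was already higher than WT gland -30 h for 5 of the 9, and none was called between EcRi gland -6 h and EcRi gland -30 h. Against WT gland -6 h, 1 was higher and 3 lower (17.2% and 9.77% of all genes), with rpr among the lower (-2.44 ± 0.38). With library size alone 4 were higher than in WT gland -6 h and 1 lower. Of 19 autophagy genes 3 rose (15.8%, near the 13.3% of all genes) and 1 fell; none rose when WT gland -30 h replicate 2 or either EcRi gland -6 h library was left out, and 8 rose and 4 fell without WT gland -30 h replicate 1. The protease gene Atg4b fell with and without replicate 2, with 71.6 and 62.7, against 137 and 207 (-1.31 ± 0.21). Among 10 small RNA genes Dcr-2, which cuts long double-stranded RNA, fell to 58.5 and 52.7, against 139 and 103 (-1.10 ± 0.21, adjusted p = 0.0017).

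**Figure D4:**
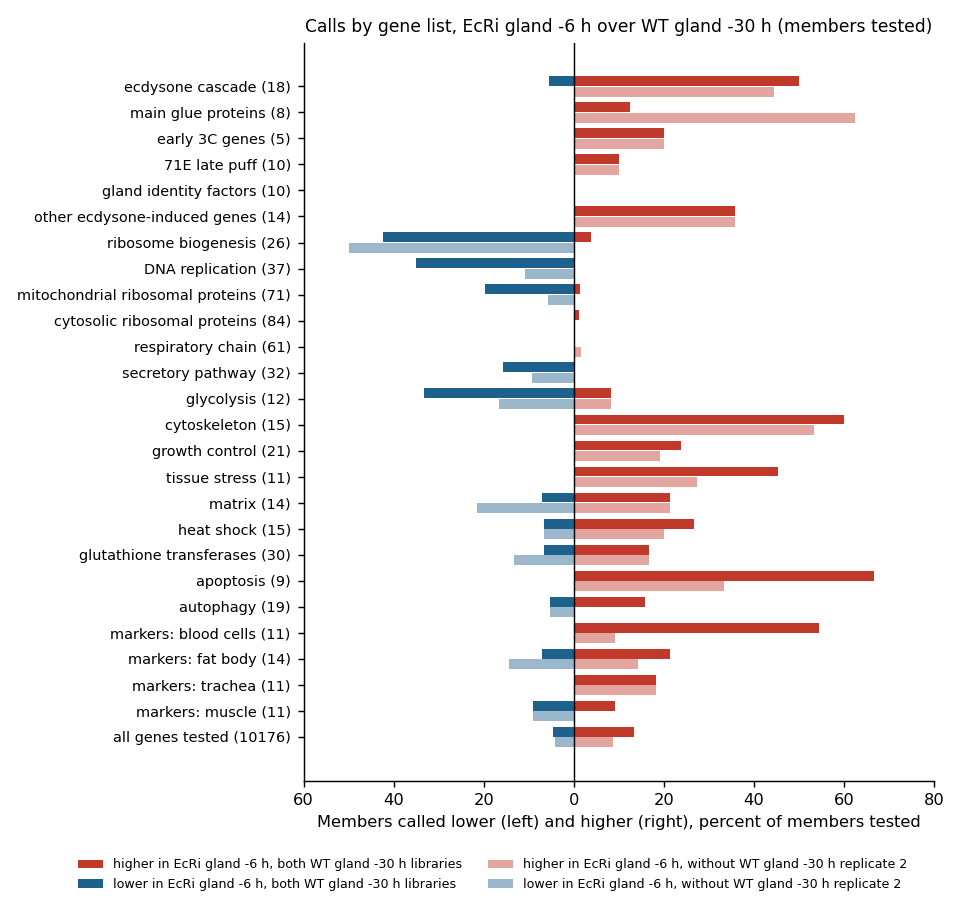
Share of the tested members of each gene list that were called higher (right, red) or lower (left, blue) in EcRi gland -6 h than in WT gland -30 h, with both WT gland -30 h libraries (dark) and without replicate 2 (pale); numbers in parentheses are members tested. The bottom row gives the background over all genes, 13.3% higher and 4.69% lower; the blood cell, apoptosis and glue rows change most when replicate 2 is left out, and the cytoskeleton and ribosome biogenesis rows keep their direction.

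The line marker w, whose copies mark many fly transgenes, stood at 613 and 663 in EcRi gland -6 h, against 11.9 and 22.9 in WT gland -30 h (5.18 ± 0.30, adjusted p = 8.12e-08). EcRi gland -30 h held 468 and 594, and WT gland -6 h 6.58 and 6.44. The libraries thus separated by their labelled genotype. The span of w overlaps kirre.

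Several of the largest rises were already present in the EcRi gland at -30 h. CG32074 stood at 36931 and 9897 scaled RPM in EcRi gland -6 h, against 40.8 and 49.0 in WT gland -30 h (8.71 ± 0.56, adjusted p = 2.11e-07), and at 129834 and 208034 in EcRi gland -30 h. CG13445 stood at 8329 and 2522, against 5.50 and 22.9 (8.52 ± 0.69, 9.46 without replicate 2), and CG14143 at 22247 and 4694, against 53.6 and 47.0 (7.64 ± 0.69). CG34273 stood at 6657 and 1914, against 18.9 and 24.8 (7.30 ± 0.57), and CG32071 at 285 and 448, against 2.13 and 0.0525 (7.62 ± 0.40, 6.84 without replicate 2).

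All 5 were higher in both EcRi gland -30 h libraries than in both EcRi gland -6 h libraries, and none of them exceeded 78.5 in WT gland -6 h or 37.0 in WT gland +6 h. Of these uncharacterised genes, CG32071, CG32074 and CG14143 lie close together on chromosome 3L (dm6; CG32071 at 11103421 to 11103873, CG14143 at 11134987 to 11135480). CG32074 lies within the span of NaPi-III and CG34273 within that of Pde6, so reads there cannot be assigned to 1 gene alone.

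For other large rises the EcRi gland -6 h libraries lay above those of WT gland -6 h as well, but for Fbp1 and NLaz that difference did not pass (0.76, adjusted p = 0.485, and 0.54, adjusted p = 0.144, in limma's test). Fbp1, the fat body receptor for larval serum proteins, stood at 1792 and 3451 in EcRi gland -6 h, against 1.23 and 12.2 in WT gland -30 h (8.84 ± 0.76, 10.12 without replicate 2, adjusted p = 2.45e-06). EcRi gland -30 h held 136.5 and 327, and WT gland -6 h 1516 and 1415. The lipocalin gene NLaz stood at 171 and 191, against 0.237 and 0.0525 (7.32 ± 0.27), and at 130.5 and 118 in WT gland -6 h. CG7142 stood at 129 and 117, was at 0 reads in both WT gland -30 h libraries, and was at least 782-fold higher against a limit of 3 reads per library (0.158 scaled RPM). CG7142 overlaps eIF1A, and held 0.877 and 0 in WT gland -6 h.

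Against every other gland library, the late EcRi gland was set apart by some genes. Both EcRi gland -6 h libraries lay above all 8 other gland libraries for 588 genes (5.78%), by more than 2-fold for 55 (0.540%). They lay below all 8 for 112 genes (1.10%), by more than 2-fold for 1 (0.00983%). frm led the first set, with 2303 and 3139.7 in EcRi gland -6 h, against 110.0 and 132 in WT gland -30 h (4.47 ± 0.26, adjusted p = 8.12e-08), and 137 and 136 in EcRi gland -30 h. No other gland library exceeded 137.1, and the EcRi gland -6 h libraries were both far above that.

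CG9717 stood at 27.7 and 39.0, against 0.0948 and 0 in WT gland -30 h (5.02 ± 0.19), and CG2157 at 62.7 and 86.2, against 0.237 and 0 (6.07 ± 0.20), within a span shared with CG1637. Tsp2A, a tetraspanin of septate junctions, stood at 20.1 and 23, against 0.474 and 0 (4.21 ± 0.25). CG14237 stood at 2452 and 3189.5, against 208 and 215 (3.72 ± 0.70), and CG13946 at 214 and 301, against 5.36 and 5.67 (5.29 ± 0.65). CG42808 stood at 132 and 96.1, against 1.42 and 0.0525 (6.15 ± 0.43, 5.55 without replicate 2), and Swim, a secreted binding partner of Wingless, at 154 and 139.5, against 7.68 and 0 (5.65 ± 0.70, 4.09 without replicate 2).

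At the other end, fbp, fructose-1,6-bisphosphatase, stood at 11.5 and 10 in EcRi gland -6 h, against 83.8 and 113.6 in WT gland -30 h (-3.07 ± 0.19, adjusted p = 1.54e-07), and at 34.6 and 35.9 in WT gland -6 h. Pgi and Gp93, given above, belong to the same set. CG2852 stood at 67.9 and 72.8, against 148 and 156 (-1.10 ± 0.17). The anillin gene scra, CG34347 and CG15362 fell with both libraries (-1.49, -1.44 and -1.12), but not without replicate 2 (-0.95, -0.89 and -0.49). P58IPK, a co-chaperone of the endoplasmic reticulum, stood at 87.4 and 55.7, against 121 and 112 (-0.73 ± 0.18), under the 2-fold minimum.

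**Figure D5:**
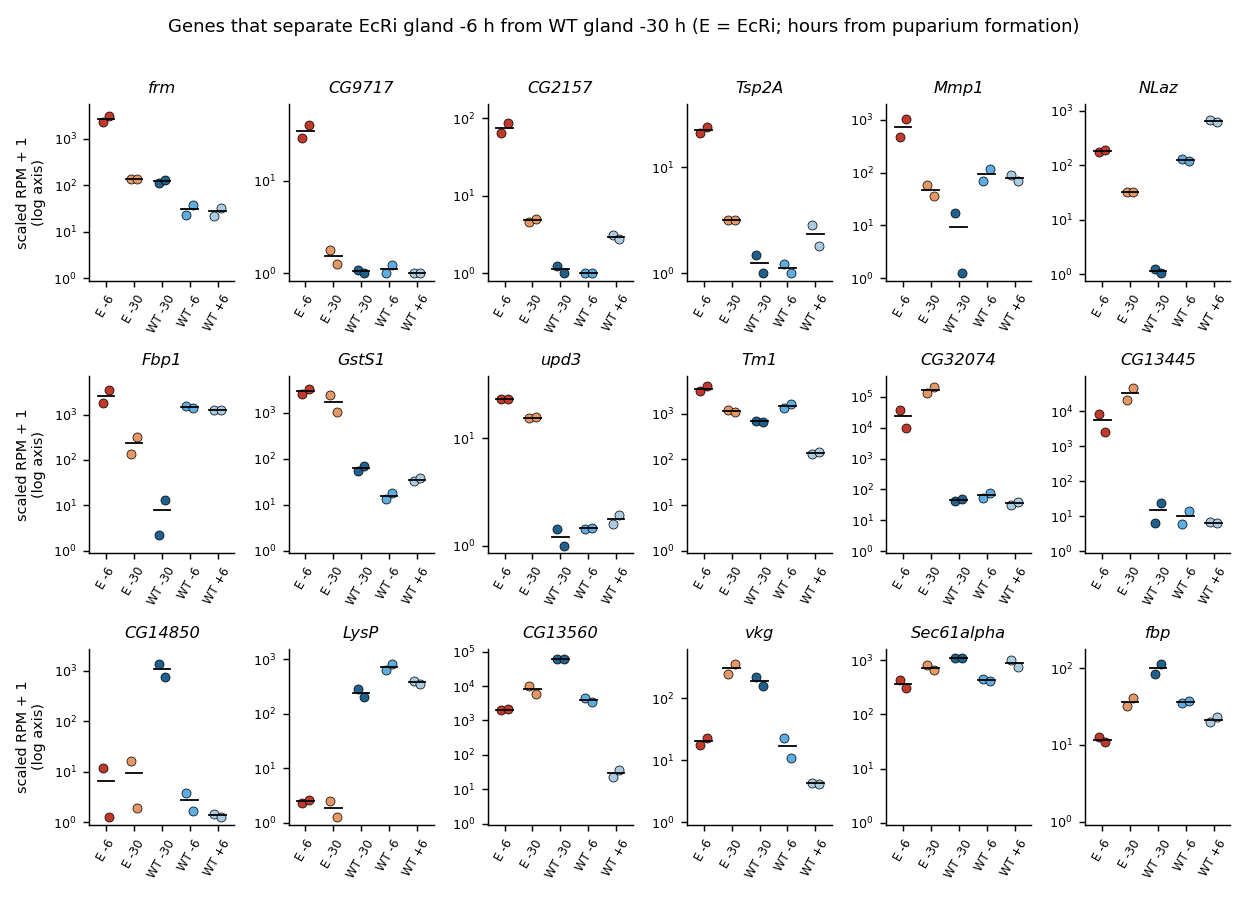
Scaled RPM plus 1 (log axis) of 18 genes that separate EcRi gland -6 h from WT gland -30 h, in the 10 gland libraries; points are libraries, black bars are means of the 2, E stands for EcRi and numbers are hours from puparium formation. frm, CG9717, CG2157 and Tsp2A are above all other gland libraries in EcRi gland -6 h, NLaz and Fbp1 lie above WT gland -6 h without passing the test against it, CG32074 and CG13445 are higher still in EcRi gland -30 h, and LysP is low in both EcRi groups.

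The largest falls included abundant transcripts of the young WT gland and genes low in both EcRi groups. CG13560 stood at 2011 and 2081 in EcRi gland -6 h, against 59391 and 59424 in WT gland -30 h (-4.86 ± 0.45, adjusted p = 4.66e-06). EcRi gland -30 h held 10063 and 6043, and WT gland -6 h 4351 and 3519. CG14850 stood at 11.0 and 0.241, against 1379.7 and 733 (-8.03 ± 0.97), and CG8087 at 39.3 and 2.65, against 1998 and 1638 (-7.22 ± 1.04). CG14852 stood at 122 and 15.2, against 628 and 758 (-3.95 ± 0.73). These 3 genes are neighbours on chromosome 3R (14560935 to 14566513 in dm6), and in EcRi gland -30 h none exceeded 46.3. Against WT gland -6 h none of the 3 passed in limma's test. Their changes against it were 0.60 ± 0.97 for CG14850, -2.37 ± 1.04 for CG8087 and 1.46 ± 0.73 for CG14852.

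The lysozyme gene LysP, within the span of mwh, stood at 1.30 and 1.62 in EcRi gland -6 h, against 283 and 202 in WT gland -30 h (-6.61 ± 0.37). EcRi gland -30 h held 1.53 and 0.246 and WT gland -6 h 624 and 808, so here the genotypes were apart at both times. The cytochrome P450 gene Cyp6w1 stood at 0.226 and 0, against 31.5 and 15.2 (-4.38 ± 0.30). CG42822 stood at 12.4 and 14.3, against 194 and 372 (-4.24 ± 0.36), CG10559 at 6.5 and 6.61, against 110.1 and 116 (-3.91 ± 0.31), and CG12831 at 0.452 and 0.301, against 8.44 and 43.6 (-3.90 ± 0.45, -2.78 without replicate 2). These 4 were also low in EcRi gland -30 h, at no more than 16.5. Unlike LysP, Cyp6w1, CG10559 and CG12831 did not differ from WT gland -6 h in limma's test. Their changes against it were -0.32 ± 0.30, -0.57 ± 0.31 and 0.46 ± 0.45. CG42822 was lower than in WT gland -6 h (-2.83 ± 0.36, adjusted p = 2.88e-05 in limma's test).

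CG13067 and CG8927 were not low there: CG13067 stood at 1.75 and 0.722 in EcRi gland -6 h, against 144.5 and 39.5 in WT gland -30 h (-5.14 ± 0.53, -6.06 without replicate 2), and at 167 and 250.2 in EcRi gland -30 h. CG8927 stood at 0.396 and 0.481, against 30.8 and 17.1 (-4.06 ± 0.37), and at 18.2 and 21.3 in EcRi gland -30 h. CG17134, within the span of Nos, stood at 33.9 and 92.8, against 1023 and 1505 (-4.44 ± 0.76), and EcRi gland -30 h held 1068 and 129. Against WT gland -6 h, CG13067 and CG8927 did not pass in limma's test (-0.66 ± 0.53 and -0.56 ± 0.37). CG17134 was lower than in WT gland -6 h (-3.11 ± 0.76, adjusted p = 0.00474 in limma's test).

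Markers of neighbouring tissues were measured in the same libraries, and their part in the results above was not tested. In bulk tissue, fewer cells of a type and less RNA per cell cannot be told apart. The 14 fat body markers summed to 6169 and 9935 scaled RPM in EcRi gland -6 h, against 8360.0 and 4386 in WT gland -30 h, with none at 0 reads in EcRi gland -6 h and 3 at 0 in WT gland -30 h replicate 2. Of these, 3 rose and 1 fell, 2 and 2 without WT gland -30 h replicate 2, and 2 rose and none fell without EcRi gland -6 h replicate 1. With every library the shares were 21.4% risen and 7.14% fallen, against 13.3% and 4.69% of all genes. The called fat body markers include Fbp1 and Ugt36D1, a glucuronosyltransferase, at 4.92 and 9.02, against 0.19 and 0 (2.82 ± 0.33). They also include the lipid transfer protein gene Apoltp, at 2.09 and 5.35, against 75 and 21.0 (-3.21 ± 0.89, -4.10 without replicate 2).

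The 13 blood cell markers summed to 79.3 and 96.9, against 49.7 and 17.4, with none at 0 reads in EcRi gland -6 h, and 3 and 11 at 0 in WT gland -30 h. Of 11 tested 6 rose, but 1 without WT gland -30 h replicate 2 (9.09%, near the 8.81% of all genes) and 1 without EcRi gland -6 h replicate 2. With every library the share that rose was 54.5%, against 13.3% of all genes. Among the 6 was the crystal cell factor gene lz, at 3.85 and 6.98, against 0 reads in both WT gland -30 h libraries. It was hence at least 34.3-fold higher against the limit of 3 reads per library. The 11 tracheal markers summed to 864 and 866, against 574 and 505, and 2 rose (18.2%, against 13.3% of all genes). These were the growth factor gene bnl and the chitin-binding protein gene Gasp, the second at 87.4 and 84.4, against 34.1 and 47.1 (1.08 ± 0.25). The 12 muscle markers summed to 200.3 and 225, against 203 and 192, with 6 at 0 reads in WT gland -30 h replicate 2. Of 11 tested 1 rose and 1 fell (9.09% each, against 13.3% and 4.69% of all genes). These were the troponin C gene TpnC73F (2.24 ± 0.60, 1.17 without replicate 2, where it did not pass) and the muscle actin gene Act57B (-1.17 ± 0.31). The 9 neuronal markers summed to 8.77 and 14.8, against 14.0 and 25.4. At 0 reads were 2 and 3 of them in EcRi gland -6 h, and 3 and 8 in WT gland -30 h. Of 7 tested 1 rose and 1 fell (14.3% each, against 13.3% and 4.69% of all genes). The vesicle protein gene Syt1 rose by 2.03 ± 0.39 and the RNA-binding protein gene elav fell by 1.70 ± 0.32. The 10 wing and disc markers summed to 67.2 and 97.4, against 79.3 and 104.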

How the data were processed

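Total RNA of wings and salivary glands was sequenced in 20 libraries, 2 for each of 10 groups, prepared with a Tecan Universal RNA-Seq kit per the labels. STAR 2.7.3a, SAMtools 1.9, DESeq2 (no version) and the dm6 build are named in the submitters' processing notes. The matrix deposited by the authors is named as counts but holds RPKM computed on the gene span with introns. Its values are whole multiples of the worth of 1 read: of 64492 values worth no more than 20 reads, 100% were whole to within 0.1 read, so reads were recovered from the steps. Gene spans came from the Ensembl annotation of the same coordinates; 16618 of 17606 genes matched by symbol and 794 by an older symbol, for 165 genes the span was implied by the values, and 4 genes had no values. The authors' tables of their own comparisons were not used, since none holds this comparison.

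Depth-corrected reads (RPM) were scaled by TMM, with trims of 30% for ratios and 5% for levels. A gene was tested if 2 libraries reached 0.559 scaled RPM (worth 10 reads in a library of median size) and its reads summed to 15 or more, which left 10176 genes. limma 3.58.1 in R 4.3.3 was fitted to log2(scaled RPM + 1) over all 20 libraries, with 1 mean for each group and moderated variances (trend and robust); residual degrees of freedom were 10, the prior added 3.42 in the median, and the median standard error was 0.287. The same fit on the recovered reads with limma's voom called 2390 genes in the comparison of EcRi gland -6 h with WT gland -30 h, against 1835. Because the values are RPKM, no count model was the main test. A gene at 0 is under the limit of 3 reads, 0.133 to 0.201 RPM, which covers counting error only.

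The comparison, its gene lists and the rule for named genes were chosen with earlier results of these data known. The rule named EcR, usp, w and all tested members of the ecdysone cascade, main glue, 3C, 71E and gland identity lists. From every other list it took at most 4 called members that reached 5 scaled RPM and were called without WT gland -30 h replicate 2 too. It further named the 12 genes that rose most and the 12 that fell most with at least 20 scaled RPM, no overlap and a call kept without each compared library. The last to be named were the 8 genes farthest above and the 8 farthest below all other gland libraries. This gave 143 genes, of which 60 overlap another gene in span; the values do not say whether counting used strand, so reads there may be shared. The labels do not say that replicate numbers mark a shared batch, and they were not used as pairs: same-numbered deviations correlated over 0.1 in 29 of 45 pairs of groups (up to 0.427), but at -0.04 for EcRi gland -6 h and WT gland -30 h. Figures were drawn with Python 3.11.15, pandas 2.3.3 and matplotlib 3.10.9. No genome sequence was used here, so no sequences are given.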

Additional observations from a re-analysis of the deposited data

How the results depend on the processing

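The number of genes called between EcRi gland -6 h and WT gland -30 h, 1835, stayed within 1.5 times under 10 planned settings of scaling, filter, pseudocount, RPKM scale, voom and block, and no named gene changed sign under a setting in which it, or its value with every library, was called. Genes not called could change sign, as Sgs7, Eig71Eg, Eig71Ei, usp, fkh, sens and eyg did without WT gland -30 h replicate 2. It was 2763 with no fold minimum, 400 with limma's treat at 2-fold, 342 with array weights, 74 from the compared libraries alone, 878 from the 10 gland libraries, 1212 of 6314 genes with a read in both WT gland -30 h libraries (a setting chosen after seeing the data) and 1186 to 4196 with 1 library left out. The cause of these shifts was not tested. Of 142 named genes, 78 lost a call from the compared libraries alone, 55 with array weights and 43 with treat; 6 lost and 5 gained one without WT gland -30 h replicate 2. The share of calls that were higher was 60.8% with log2(RPKM + 0.1), 67.7% without WT gland -30 h replicate 2 and 58.7% for genes read in both, against 74.0%; the median change of all genes was 0.48 with voom and 0.31 without WT gland -30 h replicate 1. EcR passed with no fold minimum (-0.41), and its change was -0.59 to -0.23 with 1 library left out.

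For EcRi gland -6 h against EcRi gland -30 h the count was 872 without scaling, 813 with RPKM, 764 with no fold minimum, 65 with treat, 143 from the gland libraries, 265 for genes read in both and 230 to 459 with 1 library left out. Against WT gland -6 h it was 6500, 6605 and 1179 without scaling, with RPKM and with treat, and against WT gland +6 h 2480 with treat. For WT gland -6 h against WT gland -30 h it was 5341 with RPKM, 1765 with treat, 1807 with array weights and 1056 from the compared libraries. For EcRi gland -30 h against WT gland -30 h it was 2469 without scaling, 899 with a pseudocount of 4, 2538 with RPKM, 2107 with no fold minimum, 196 with treat, 130 with array weights, 15 from the compared libraries, 439 from the gland libraries, 898 for genes read in both and 647 to 4014 with 1 library left out.

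Mean distances of EcRi gland -6 h to EcRi gland -30 h, WT gland -30 h, WT gland -6 h and WT gland +6 h were 0.306, 0.592, 0.626 and 0.927. Without scaling the distances to EcRi gland -30 h, WT gland -6 h and WT gland +6 h were 0.481, 1.626 and 1.275, with a pseudocount of 0.25 they were 0.393, 0.827 and 1.210, and with 4 they were 0.201, 0.408 and 0.606. With no filter all 4 were 0.176, 0.269, 0.304 and 0.431. To WT gland -6 h and WT gland +6 h they were 0.726 and 1.128 with the stricter filter and 0.720 and 1.098 for genes read in both; to WT gland +6 h the distance was 0.954 with median-of-ratios scaling. To WT gland -30 h it was 0.372 to 0.812 with 1 library left out. The share of genes nearer to WT gland -30 h was 90.2% without scaling and 38.9% to 77.2% with 1 library left out.

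With the replicate number as a block the main count was 1879. The labels do not say that the numbers pair the libraries. At 0 reads a gene is not shown to be absent, which limits what WT gland -30 h replicate 2 can show.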

Other observations

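Of 6 genes for the uptake and conversion of ecdysone 2 rose, E23 and Oatp74D (33.3%, against 13.3% of all genes). Of 7 genes that modify glue PH4alphaSG2 rose and PH4alphaEFB fell, and 2 rose and none fell without WT gland -30 h replicate 2. With every library these glue modification shares were 14.3% risen and 14.3% fallen, against 13.3% and 4.69% of all genes. Of 34 proteasome genes 2 rose and 1 fell (5.88% and 2.94%, both under the shares of all genes). Of 17 tRNA synthetases 3 fell (17.6%, against 4.69% of all genes). Of 10 genes of developmental timing and juvenile hormone 1 rose, a share under the 13.3% of all genes. None of 22 subunits of the vacuolar proton pump and none of 5 dosage compensation genes was called by limma's test with every library. Without WT gland -30 h replicate 2 the counts were 1 risen proteasome gene, 1 fallen pump subunit and none for the other 3 lists. Of 10 wing and imaginal disc markers 1 rose with every library and none without replicate 2. Of 13 salivary gland markers 1 rose, and 2 without replicate 2.

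The 2 EcRi gland -6 h libraries differed from each other in several abundant transcripts. Replicate 1 held more than replicate 2 for each of the 8 main glue genes and for CG32074, CG14143, CG13445 and CG34273. It also held more of the neighbours CG14850, CG8087 and CG14852.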
